A study of Mus musculus with 40 samples.

Results

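Expression of 9 genes used to mark periosteal and stromal progenitor cells (Prrx1, Pdgfra, Pdgfrb, Lepr, Ly6a, Thy1, Pi16, Dpp4 and Postn) was followed through rib repair in bulk RNAseq of immature and mature mice. The genes were chosen by symbol as markers of these cells, with earlier results of these data known. All 9 were among the 21204 genes that the authors kept in their filtered table. The animals were wild type female mice of the C57BL/6 strain, with no transgene or drug treatment. Immature mice were 7 weeks old and mature mice over 10 months old. Composite tissue holding rib bone, bone marrow and intercostal muscle was taken at baseline and, after a stretch of rib was resected, at 0, 2, 5 and 14 dpr (days after resection), where the labels call it callus. The study defines baseline as the state before resection for its imaging, while the labels of the baseline libraries speak of collection after a resection, so that changes relative to baseline are changes relative to the libraries labelled so. Of the 10 groups, 9 had n = 4 libraries and the mature 5dpr group had n = 3, since its replicate 2 was not analysed here. The tissue was ground whole, so that fewer cells of a type and less RNA per cell cannot be told apart in any value below.

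The periosteum, the layer that covers bone, and the marrow stroma both hold mesenchymal cells that can form bone and cartilage, and rib repair depends on the periosteum. Prrx1 is a homeobox transcription factor of limb and body wall mesenchyme. Pdgfra and Pdgfrb encode the receptor tyrosine kinases for platelet-derived growth factors, the first widespread in fibroblasts and the second also in the mural cells of vessels. Lepr, the leptin receptor, marks the stromal cells around marrow sinusoids that supply CXCL12 and stem cell factor to blood-forming cells. Ly6a (Sca-1) and Thy1 (CD90) encode small surface proteins held by a lipid anchor. They serve to sort mesenchymal progenitors, but Ly6a is also made by endothelial and blood-forming cells and Thy1 by T cells and neurons. Pi16 and Dpp4 mark fibroblasts of vessel adventitia and of the interstitium between tissue layers, and Postn encodes periostin, a matrix protein of the periosteum and of healing connective tissue.

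The promoters of the members that changed most in opposite directions, Postn and Lepr, are shown from RefSeq's GRCm38.p6 annotation, with the 250 bases before the gene's start, read 5′ to 3′ on the plus strand, on which both genes lie. Capitals mark any match, on either strand, to TATAAA (the TATA box), CANNTG (the E-box, bound by factors of the Twist family among others) or TGANTCA (the AP-1 site). No marked match overlaps another.
Postn, chr3:54360857-54361106: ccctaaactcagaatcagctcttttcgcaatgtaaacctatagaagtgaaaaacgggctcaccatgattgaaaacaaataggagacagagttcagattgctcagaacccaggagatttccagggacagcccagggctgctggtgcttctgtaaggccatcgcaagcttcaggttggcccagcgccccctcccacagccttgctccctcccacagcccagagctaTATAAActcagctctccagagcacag
Lepr, chr4:101717157-101717406: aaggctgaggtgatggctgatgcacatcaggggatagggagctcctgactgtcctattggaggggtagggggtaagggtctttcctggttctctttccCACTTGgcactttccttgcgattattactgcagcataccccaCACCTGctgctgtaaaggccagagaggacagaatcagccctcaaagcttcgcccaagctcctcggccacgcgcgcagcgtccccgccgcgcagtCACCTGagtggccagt
The Postn window holds 1 TATA box, which begins 26 bases before the start, and no E-box or AP-1 site. In the Lepr window there are 3 E-boxes, beginning 152, 110 and 16 bases before the start, and neither of the other motifs. Of 32851 mouse promoters of this length, 12.4% hold TATAAA, 66.2% hold CANNTG and 6.75% hold TGANTCA. Letters alone describe these windows and say nothing of which factors bind there. Both genes have a second RefSeq start, whose windows hold no match to these motifs.

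Total counts ranged from 6057756 to 21537070 per library, with a median of 9087417. Fold changes, standard errors (SE) and adjusted p-values below come from edgeR's quasi-likelihood test, 1 model of all 39 libraries, with Benjamini-Hochberg adjustment over all tested genes and a threshold of 0.05. Levels are CPM (counts scaled to a common library size) with TMM factors, given as mean ± SD over libraries. The labels named the tissue, and its cell types were checked by marker lists. The 20 skeletal muscle genes summed to 36265 to 178180 CPM in libraries of baseline and 0dpr and to 10713 to 37225 CPM at 2, 5 and 14dpr. The osteoblast list (11 genes) summed to 1663 to 27634 CPM, the B cell list (5 genes) to 3.20 to 235 CPM, and in no group was a listed marker at 0 in every library. Libraries of mature mice at 2dpr stood apart in member levels. Their replicate 3 had high Lepr and Dpp4, and replicate 4 had high Pi16 and low Postn, so that values without both are given where a call rests on them.

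Per kilobase of annotated exon, Postn and Ly6a were the most abundant members in all 10 groups. The level of Postn ranged from 24.6 CPM per kb in mature mice at 0dpr to 817 CPM per kb in immature mice at 5dpr, and that of Ly6a from 63.9 CPM per kb in mature mice at baseline to 249 CPM per kb in mature mice at 5dpr. Lepr and Dpp4 were the lowest in most groups after resection, at 2.19 and 3.17 CPM per kb in mature mice at 5dpr. At baseline Lepr was higher, at 12.9 CPM per kb in immature and 15.7 CPM per kb in mature mice, above Prrx1 (8.06 and 6.34 CPM per kb) and Thy1 (5.94 and 7.06 CPM per kb).

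**Figure D1:**
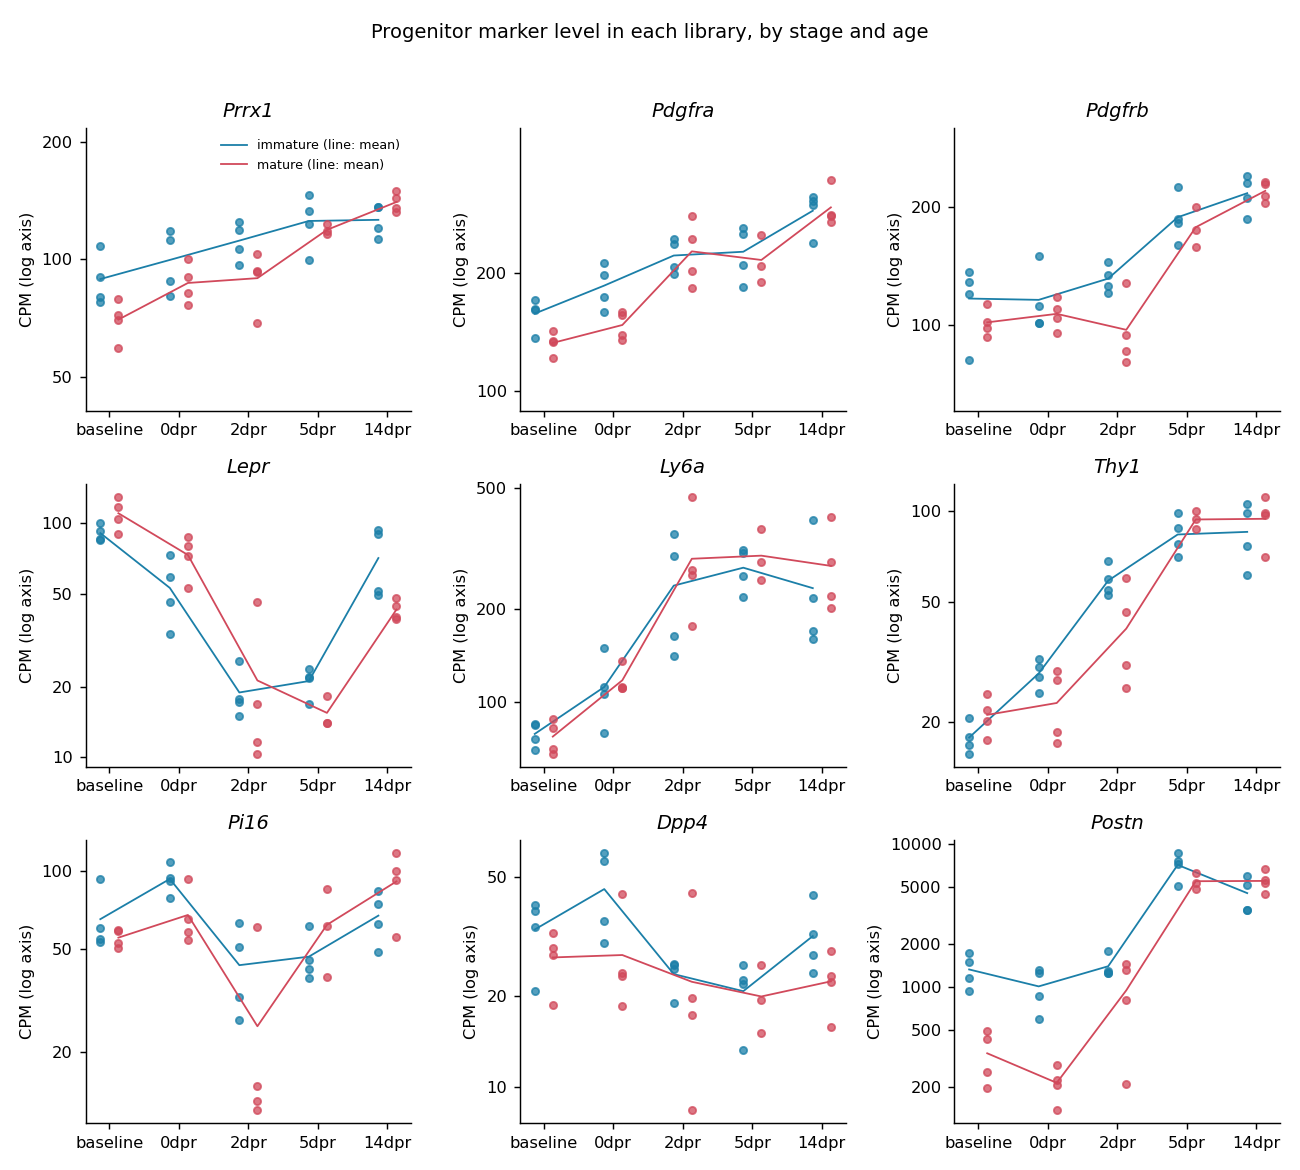
Level of each member in every library (CPM, log axis) against stage, with immature mice in blue, mature mice in red and lines through the group means. Lepr falls to a low at 2 and 5dpr and climbs at 14dpr, Thy1 and Ly6a climb early, and Postn climbs most between 2 and 5dpr, from group means of 1393 and 945 CPM to 7107 and 5466 CPM.

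Relative to baseline, callus at 14dpr had higher levels of the PDGF receptors, Prrx1, Ly6a, Thy1 and Postn at both ages. In immature mice, 6 of the 9 members passed the test, all of them higher, where 31.4% of all tested genes were called and 16.4% were called higher (15.1% lower). In mature mice, 7 members passed, 6 higher and 1 lower, against 33.5% of all genes called, 17.1% higher and 16.4% lower. Prrx1, Pdgfra, Pdgfrb, Ly6a, Thy1 and Postn were the 6 higher at each age, and the lower one was Lepr in mature mice. The median log2 fold change of the members was 0.87 in immature and 1.12 in mature mice, beside -0.04 and -0.03 over all genes. Leaving out any 1 library kept the numbers at 6 and 7. The skeletal muscle list was lower at 14dpr than at baseline at both ages. With a muscle score as a covariate, 3 members (Pdgfra, Ly6a and Thy1) remained called in immature mice and 7 in mature mice. The muscle sums did not overlap between baseline and 14dpr at either age, so that this covariate cannot tell muscle from stage.

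From 0 to 2dpr, the largest step of the series, members moved both ways. In immature mice 5 members passed, 2 higher (Ly6a and Thy1) and 3 lower (Lepr, Pi16 and Dpp4), where 44% of all genes were called, 21.8% higher and 22.2% lower. In mature mice 6 passed, 4 higher (Pdgfra, Ly6a, Thy1 and Postn) and 2 lower (Lepr and Pi16), against 47.6% of all genes, 22.7% higher and 24.9% lower. These shares lie near the background, so the number of members called sets them little apart from other genes. The 20 muscle genes summed to a median of 126543 CPM at 0dpr and 18597 CPM at 2dpr in immature mice, and to 121317 and 12442 CPM in mature mice. With the muscle score as a covariate, Lepr alone stayed past the threshold, at both ages, with log2 fold changes of -2.58 (adjusted p = 0.0027) in immature and -3.17 (adjusted p = 0.0028) in mature mice. The other called members kept their direction under this covariate, with Pi16 at -0.30 and -0.47. The muscle sums of these stages did not overlap, at 77162 CPM or more at 0dpr and 22203 CPM or less at 2dpr. Muscle and stage therefore cannot be told apart by this covariate, whether a call is lost or kept under it.

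The other steps moved fewer members. Between baseline and 0dpr, 1 of 9 (Thy1) passed in immature mice, beside 10.6% of all genes, and 0 of 9 passed in mature mice, beside 22.5%. In mature mice 3 members had an unadjusted p under 0.05 at this step, beside 7321 of all 21204 genes, and DESeq2 also called 0 members. From 2 to 5dpr, 2 members (Pdgfrb and Postn) rose in immature mice, against a background of 8.05%, and 4 (Pdgfrb, Thy1, Pi16 and Postn) rose in mature mice, against 14.5%. From 5 to 14dpr, Lepr was the 1 member called at each age, beside 3.18% of genes in immature and 4.18% in mature mice. The labels number the replicates of a group without saying that each is a separate animal, so that p-values measure the spread between these libraries.

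**Figure D2:**
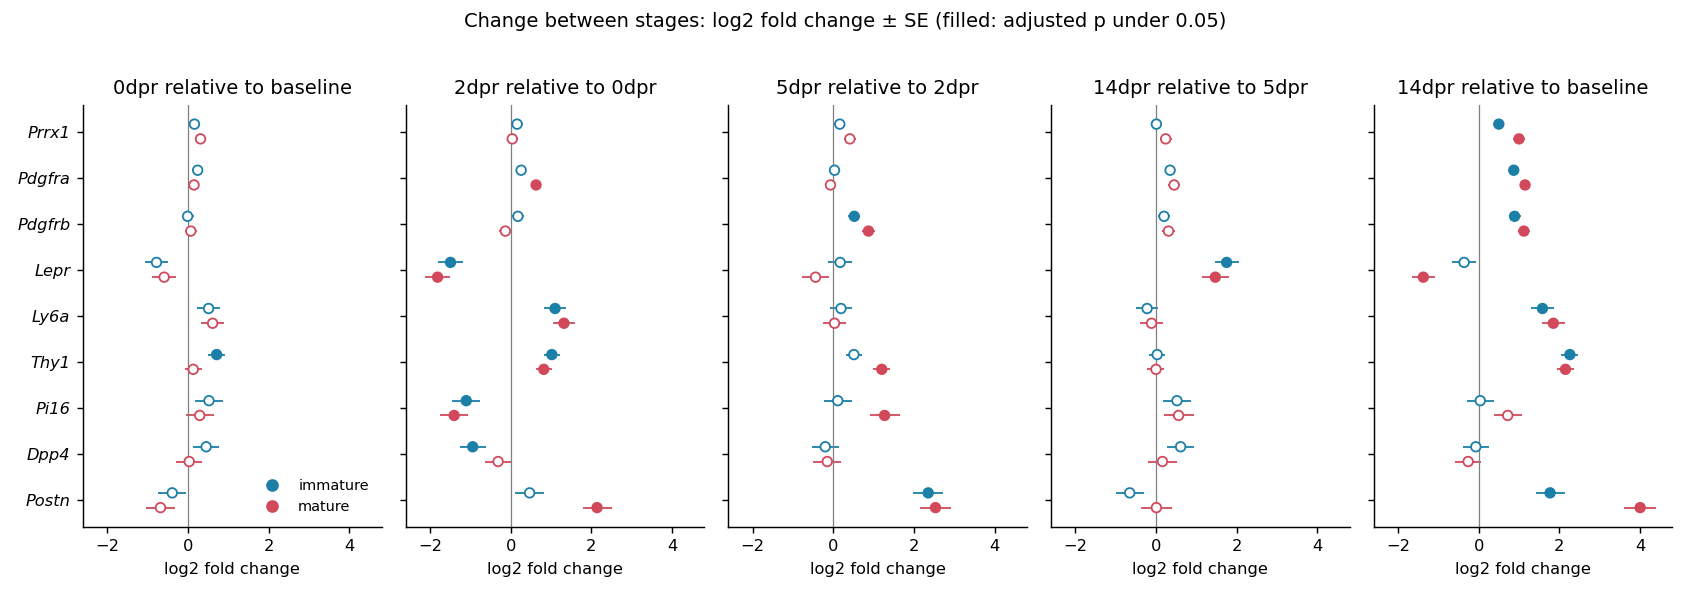
Log2 fold change of each member between stages with its SE as a horizontal bar, immature mice in blue and mature mice in red, filled where the adjusted p is under 0.05. Lepr lies left of 0 at 2dpr and right of 0 at 14dpr relative to 5dpr, and the 6 members filled at both ages in the last panel all lie right of 0, with Postn in mature mice the farthest at 4.00.

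Prrx1 (ENSMUSG00000026586, chromosome 1 of GRCm38, 163245119 to 163313710, minus strand) changed in small steps. In immature mice its level was 80.0, 90.3, 108 and 77.9 CPM at baseline and 120, 113, 136 and 136 CPM at 14dpr. Mature mice had 69.9, 72.2, 59.4 and 79.0 CPM at baseline and 135, 144, 150 and 132 CPM at 14dpr. The stages did not overlap at either age. The log2 fold change was 0.50 ± 0.14 (SE, adjusted p = 0.0041) in immature and 1.00 ± 0.14 (SE, adjusted p = 4.3e-07) in mature mice, and none of the 4 single steps passed the test at either age. The nearest was the step from 2 to 5dpr in mature mice, at 0.41 ± 0.15 on the log2 scale (SE, adjusted p = 0.053), with libraries that did not overlap. That step passed without mature 2dpr replicate 2 (0.48, adjusted p = 0.032) and in the fit that took replicate numbers as blocks (0.50, adjusted p = 0.026). Under the muscle covariate the change to 14dpr in immature mice was 0.49 (adjusted p = 0.198).

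Of the PDGF receptors, Pdgfra (ENSMUSG00000029231, chromosome 5, 75152292 to 75198215, plus strand) was higher at 14dpr than at baseline at both ages, and its step from 0 to 2dpr was past the threshold in mature mice. Its levels in mature mice were 139, 135, 156 and 159 CPM at 0dpr and 244, 202, 280 and 183 CPM at 2dpr, with no overlap. That was a log2 fold change of 0.63 ± 0.13 (SE, adjusted p = 0.00018). In immature mice the same step gave 0.26 ± 0.13 (SE, adjusted p = 0.114), and the difference between the ages in this step was not past the threshold (-0.37 ± 0.19, SE, adjusted p = 0.457). Relative to baseline, Pdgfra at 14dpr was higher by 0.87 ± 0.13 (SE, adjusted p = 2.8e-06) in immature mice, from 158 ± 15.0 to 289 ± 33.3 CPM (SD, n = 4 each). For mature mice it was higher by 1.15 ± 0.13 (SE, adjusted p = 1.7e-08), where 132 ± 8.72 CPM became 294 ± 34.8 CPM (SD, n = 4 each). The rise from 5 to 14dpr in mature mice (0.45 ± 0.14, SE) had an adjusted p of 0.07, while DESeq2 gave 0.02.

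Pdgfrb (ENSMUSG00000024620, chromosome 18, 61045150 to 61085061, plus strand) rose between 2 and 5dpr. The libraries of immature mice had 134, 121, 126 and 145 CPM at 2dpr and 160, 187, 225 and 183 CPM at 5dpr. In mature mice they had 94.5, 128, 85.9 and 80.5 CPM at 2dpr and 201, 158 and 175 CPM at 5dpr. All libraries at 5dpr were above all at 2dpr at each age. The log2 fold changes of 0.52 ± 0.15 (SE, adjusted p = 0.02) in immature and 0.87 ± 0.16 (SE, adjusted p = 0.00016) in mature mice did not differ past the threshold (-0.35 ± 0.21, SE, adjusted p = 0.684). In immature mice this call was lost without 2dpr replicate 2 (adjusted p = 0.072), 2dpr replicate 3 (0.064) or 5dpr replicate 4 (0.11), and in the fit that took replicate numbers as blocks (0.067). By 14dpr, Pdgfrb was at 217 ± 23.2 and 221 ± 13.4 CPM (SD, n = 4) in immature and mature mice, log2 fold changes of 0.89 ± 0.15 (SE, adjusted p = 9.8e-06) and 1.12 ± 0.15 (SE, adjusted p = 2.2e-07) over baseline.

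Lepr (ENSMUSG00000057722, chromosome 4, 101717404 to 101815352, plus strand), whose promoter is printed above, fell from 0 to 2dpr and rose from 5 to 14dpr at both ages. Immature libraries had 100, 92.6, 85.2 and 86.0 CPM at baseline, 73.0, 58.9, 33.6 and 46.3 CPM at 0dpr, and 17.2, 14.9, 17.7 and 25.7 CPM at 2dpr. Mature libraries had 130, 118, 104 and 90.5 CPM at baseline, 72.9, 87.6, 52.7 and 80.0 CPM at 0dpr, and 16.9, 10.3, 46.2 and 11.6 CPM at 2dpr. Every library at 2dpr was below every library at 0dpr of its age, with mature replicate 3 the nearest. The fall from 0 to 2dpr was -1.49 ± 0.30 (SE, adjusted p = 0.00012) on the log2 scale in immature and -1.81 ± 0.30 (SE, adjusted p = 5.4e-06) in mature mice. The lower levels at 0dpr than at baseline had no overlap at either age, with log2 fold changes of -0.78 ± 0.29 (SE, adjusted p = 0.075) and -0.59 ± 0.29 (SE, adjusted p = 0.137) that were not past the threshold.

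Lepr then stayed low at 5dpr, at 22, 16.9, 21.8 and 23.8 CPM in immature and 18.3, 14.0 and 14.0 CPM in mature mice. At 14dpr the immature libraries had 49.5, 90.1, 51.3 and 93.5 CPM and the mature ones 44.5, 48.0, 39.0 and 39.6 CPM. All were above the libraries at 5dpr, and the lowest immature library was above the highest mature one. The rise from 5 to 14dpr was 1.75 ± 0.30 (SE, adjusted p = 0.00037) in immature and 1.47 ± 0.33 (SE, adjusted p = 0.0064) in mature mice, the latter with an adjusted p of 0.051 without mature 5dpr replicate 3. Relative to baseline, Lepr at 14dpr was lower in mature mice (-1.37 ± 0.29, SE, adjusted p = 0.00033), while immature mice had a value of -0.36 ± 0.29 (SE, adjusted p = 0.381). The test of that difference between ages did not pass (1.02 ± 0.41, SE, adjusted p = 0.521), nor did the ages differ past the threshold at 14dpr itself (0.73 ± 0.29, SE, adjusted p = 0.974). The B cell list, whose genes are expressed in marrow, was low at the same stages. Its summed level had a median of 178 CPM at baseline, 18.0 CPM at 2dpr, 10.3 CPM at 5dpr and 58.4 CPM at 14dpr in immature mice. In mature mice the medians were 118, 14.5, 8.70 and 33.2 CPM. The part of the share of marrow in the tissue in the levels of Lepr was not tested.

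Among the surface markers, Thy1 (ENSMUSG00000032011, chromosome 9, 44043384 to 44048579, plus strand) rose step by step. In immature mice it was at 20.7, 17.9, 16.8 and 15.7 CPM at baseline, 28.1, 24.9, 32.3 and 30.5 CPM at 0dpr and 52.8, 59.4, 68.0 and 54.5 CPM at 2dpr. None of these stages overlapped. The log2 fold changes were 0.71 ± 0.21 (SE, adjusted p = 0.026) from baseline to 0dpr and 1.02 ± 0.20 (SE, adjusted p = 8.7e-05) from 0 to 2dpr. The first of these calls was lost without 0dpr replicate 1 or 3 or baseline replicate 3, 4 or 6 of the immature mice (adjusted p from 0.054 to 0.083). In mature mice Thy1 was at 27.6, 17.0, 29.4 and 18.5 CPM at 0dpr, at 46.1, 60.0, 25.9 and 30.9 CPM at 2dpr and at 86.6, 100 and 93.8 CPM at 5dpr. It rose by 0.82 ± 0.20 (SE, adjusted p = 0.0011) from 0 to 2dpr, with overlap, and by 1.20 ± 0.21 (SE, adjusted p = 0.00012) from 2 to 5dpr, without overlap. The difference between the ages in the step from 2 to 5dpr was -0.69 ± 0.29 (SE) with an adjusted p of 0.576. At 14dpr Thy1 was 4.79-fold above baseline in immature mice (log2 fold change 2.26 ± 0.21, SE, adjusted p = 2.1e-10) and 4.44-fold in mature mice (2.15 ± 0.21, SE, adjusted p = 3.4e-10). T cells and neurons also express Thy1. The T cell list (7 genes) summed to a median of 33.6 CPM at baseline and 39.5 CPM at 14dpr in immature mice and to 48.1 and 28.9 CPM in mature mice. For the Schwann cell and neuron list (7 genes) the medians were 312 and 178 CPM in immature and 213 and 111 CPM in mature mice.

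Ly6a (ENSMUSG00000075602, chromosome 15, 74994877 to 74998031, minus strand) rose early and varied widely between libraries after resection. Immature libraries had 78.9, 106, 150 and 112 CPM at 0dpr and 141, 299, 353 and 164 CPM at 2dpr, and mature libraries 112, 111, 136 and 111 CPM at 0dpr and 466, 259, 177 and 269 CPM at 2dpr. The stages overlapped in immature mice and did not in mature mice. The log2 fold changes were 1.10 ± 0.28 (SE, adjusted p = 0.0015) and 1.32 ± 0.28 (SE, adjusted p = 0.00017). At 5 and 14dpr the level was near that of 2dpr, with group means from 235 to 300 CPM and no step past the threshold. Over baseline, Ly6a at 14dpr was higher by 1.58 ± 0.28 (SE, adjusted p = 3.1e-05) in immature and 1.85 ± 0.28 (SE, adjusted p = 3e-06) in mature mice. The endothelial list, a cell type that also expresses Ly6a, had medians of 585 CPM at baseline and 843 CPM at 14dpr in immature mice and of 661 and 900 CPM in mature mice. Its part in the rise of Ly6a was not tested. Ly6a belongs to a family of closely related genes, and how reads shared within it were counted is not given in the sources used here.

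Neither adventitial marker was past the threshold at 14dpr relative to baseline in the test used throughout. Pi16 (ENSMUSG00000024011, chromosome 17, 29317680 to 29330593, plus strand) fell between 0 and 2dpr. Immature libraries had 91.6, 78.4, 93.8 and 108 CPM at 0dpr and 63.0, 32.5, 50.8 and 26.4 CPM at 2dpr, without overlap. Mature libraries had 58.0, 64.9, 93.1 and 53.9 CPM at 0dpr and 14.8, 11.9, 12.9 and 60.7 CPM at 2dpr, where replicate 4 lay among the 0dpr values. The log2 fold changes were -1.10 ± 0.35 (SE, adjusted p = 0.0099) and -1.40 ± 0.35 (SE, adjusted p = 0.0012). From 2 to 5dpr Pi16 rose in mature mice, to 85.3, 61.4 and 38.7 CPM (1.27 ± 0.37, SE, adjusted p = 0.017), with replicate 4 of 2dpr inside that range. This call was lost without mature 2dpr replicate 1 (adjusted p = 0.061), 2 (0.06) or 3 (0.063), without mature 5dpr replicate 1 (0.129) and with the muscle covariate (0.074), but not without 2dpr replicates 3 and 4 together. At 14dpr its level was 67.1 ± 15.1 CPM in immature and 90.8 ± 25.9 CPM in mature mice (SD, n = 4), beside 65.0 ± 18.7 and 55.2 ± 4.36 CPM at baseline, and neither difference passed the test (adjusted p = 0.942 and 0.11). The difference in mature mice did pass in the fit of only the libraries compared.

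Dpp4 (ENSMUSG00000035000, chromosome 2, 62330073 to 62412231, minus strand), which encodes a surface peptidase, changed past the threshold in 1 step at 1 age in the test used throughout. Immature libraries had 59.8, 35.6, 56.3 and 30.0 CPM at 0dpr and 24.7, 25.7, 25.5 and 19.0 CPM at 2dpr, a log2 fold change of -0.94 ± 0.32 (SE, adjusted p = 0.018). They did not overlap, but the call was lost without 0dpr replicate 1 (adjusted p = 0.078), 0dpr replicate 3 (0.051) or 2dpr replicate 4 (0.056). In mature mice Dpp4 was at 24.0, 43.9, 23.3 and 18.6 CPM at 0dpr and at 17.3, 8.40, 44.1 and 19.7 CPM at 2dpr (-0.31 ± 0.32, SE, adjusted p = 0.46). Replicates 1 and 2 of 2dpr lay below all mature libraries at 0dpr, while replicate 3 lay above them all. Without mature 2dpr replicates 3 and 4, the fall in mature mice was past the threshold. The difference between the ages in this step was not past the threshold (-0.63 ± 0.46, SE, adjusted p = 0.606), so that the fall is not shown to be particular to immature mice. Over all 10 groups its mean level lay between 20 and 45.4 CPM, and with the groups ordered by this mean, each overlapped the next.

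Postn (ENSMUSG00000027750, chromosome 3, 54361109 to 54391037, plus strand) had the widest range of the members. In immature mice its level was 932, 1152, 1717 and 1491 CPM at baseline, 1321, 1248, 596 and 866 CPM at 0dpr and 1250, 1299, 1245 and 1778 CPM at 2dpr. These 3 stages overlapped, and no step between them passed the test. It then reached 7247, 7568, 8592 and 5021 CPM at 5dpr, a log2 fold change of 2.35 ± 0.37 (SE, adjusted p = 4.7e-05). In mature mice it was at 492, 256, 197 and 430 CPM at baseline and 224, 208, 138 and 285 CPM at 0dpr. At 2dpr the mature libraries had 816, 1437, 1318 and 210 CPM, so that 3 of 4 were above all libraries at 0dpr and replicate 4 was among them. The step gave 2.14 ± 0.36 (SE, adjusted p = 7.3e-06), and 0.81 (adjusted p = 0.696) with the muscle covariate. From 2 to 5dpr Postn rose to 5285, 4847 and 6267 CPM (2.53 ± 0.38, SE, adjusted p = 1.5e-05), without overlap.

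At 14dpr Postn was at 5971, 3467, 5175 and 3445 CPM in immature and at 6616, 5541, 4471 and 5343 CPM in mature mice. These ranges overlapped with each other and with those at 5dpr. Relative to baseline the level was 3.41-fold higher in immature mice (log2 fold change 1.77 ± 0.36, SE, adjusted p = 0.00018) and 16.0-fold higher in mature mice (4.00 ± 0.39, SE, adjusted p = 5.3e-10). The difference between the ages in this change was -2.23 ± 0.50 (SE) and was not past the threshold in the test used throughout (adjusted p = 0.101). It passed with DESeq2 (-2.20, adjusted p = 0.0063), with only the libraries compared (-2.22, adjusted p = 0.011) and with the muscle covariate (-2.55, adjusted p = 0.049). With the muscle covariate, the change in immature mice was 0.96 (adjusted p = 0.352) and that in mature mice 3.51 (adjusted p = 5.8e-07).

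Between the ages, Postn was the 1 member that differed, and it did so at baseline and at 0dpr. At baseline 1 of 9 members passed, beside 0.585% of all genes. All 4 immature libraries, from 932 CPM, were above the highest mature one at 492 CPM, a log2 fold change of 1.94 ± 0.36 (SE, adjusted p = 0.0048). Without mature baseline replicate 3 it was 1.75 (adjusted p = 0.052). At 0dpr again 1 of 9 passed, beside 0.726% of all genes. The immature libraries, from 596 CPM, were above the highest mature one at 285 CPM, with a log2 fold change of 2.24 ± 0.36 (SE, adjusted p = 0.00063), while a fit of only the 8 libraries at 0dpr gave 2.25 (adjusted p = 0.078). The osteoblast list, whose cells also express Postn, summed to 5975 to 13558 CPM in immature and 4786 to 10963 CPM in mature mice at baseline. At 0dpr it summed to 12101, 9449, 1880 and 8697 CPM in the immature libraries, replicates 1 to 4, and to 2500 to 5305 CPM in mature ones. Immature replicate 3, the lowest in this list, was also the lowest of its group in Postn, and the part of bone cells in the difference was not tested.

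From 2dpr on, no member differed between the ages past the threshold of edgeR's test. At 2dpr 0 of 9 passed (0.627% of all genes), and DESeq2 called 0. An unadjusted p under 0.05 was held by 4 members, all higher in immature mice (Prrx1, Pdgfrb, Thy1 and Pi16), beside 2812 of all 21204 genes. Pi16 at 2dpr had a log2 fold change of 0.76 ± 0.35 (SE, adjusted p = 0.339), which passed without mature 2dpr replicate 4 (1.71, adjusted p = 0.0033) and without replicates 3 and 4 (1.70, adjusted p = 0.024). Without mature 2dpr replicate 2, Pdgfrb (0.60, adjusted p = 0.034) and Thy1 (0.77, adjusted p = 0.04) passed, while without replicates 3 and 4 they were at 0.24 (adjusted p = 0.825) and 0.15 (adjusted p = 0.949). At 5dpr 0 of 9 passed, as did 0% of all genes, 0 members had an unadjusted p under 0.05 (1081 of all genes did), and DESeq2 called 0 members and 33 genes. At 14dpr 0 of 9 passed, beside 0.00943% of all genes, 1 member (Lepr) had an unadjusted p under 0.05 (968 of all genes did), and DESeq2 called 0. Postn had log2 fold changes of 0.56 ± 0.35, 0.38 ± 0.38 and -0.28 ± 0.35 (SE) at 2, 5 and 14dpr.

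**Figure D3:**
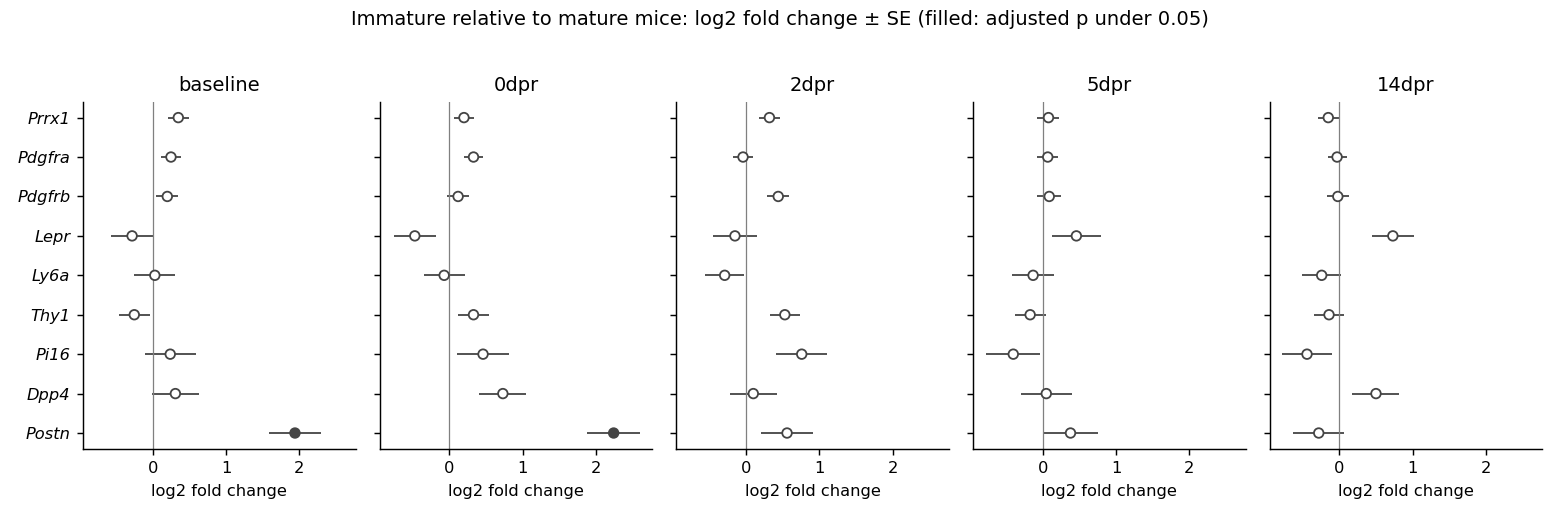
Log2 fold change of immature relative to mature mice for each member, with its SE, in 1 panel per stage, filled where the adjusted p is under 0.05. Postn at baseline (1.94) and at 0dpr (2.24) are the filled points, and at 5 and 14dpr all points are open.

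Whether a change between stages differed by age was tested for each step, and 0 of 9 members passed in any of them. The background was 0.0141% of genes from baseline to 0dpr, 0.0613% from 0 to 2dpr, 0% from 2 to 5dpr, 0% from 5 to 14dpr and 0.0472% from baseline to 14dpr. At an unadjusted p under 0.05 there were 0, 1, 2, 0 and 3 members in that order, beside 1712, 2382, 1715, 901 and 1693 of all genes. DESeq2 called 0 members in the first 4 steps and 1 (Postn) from baseline to 14dpr, and over all genes it called 37 from 2 to 5dpr and 5 from 5 to 14dpr. For Postn from 0 to 2dpr the difference was -1.68 ± 0.50 (SE, adjusted p = 0.207), and it passed without mature 2dpr replicate 4 (-2.01, adjusted p = 0.031) but not without replicates 3 and 4 together (-1.93, adjusted p = 0.091). Prrx1 from baseline to 14dpr had a difference of -0.50 ± 0.19 (SE, adjusted p = 0.482).

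Other genes of fibroblasts and progenitors, in lists that do not hold the members, were counted in the same comparisons. They are read against the share of all genes called at 14dpr relative to baseline, 31.4% in immature and 33.5% in mature mice, and no test between lists was made. Of 15 genes of activated fibroblasts, which build scar and callus matrix, 12 rose and 0 fell at 14dpr relative to baseline in immature mice, and 15 rose in mature mice. Their median log2 fold changes were 1.30 and 2.39, beside -0.04 and -0.03 over all genes. Cthrc1, a secreted protein of collagen-producing cells, rose by 3.70 ± 0.31 (SE, adjusted p = 4e-11) and 3.84 ± 0.32 (SE, adjusted p = 1.3e-11), and Fn1, fibronectin, by 3.07 ± 0.35 (SE, adjusted p = 2e-08) and 3.53 ± 0.36 (SE, adjusted p = 1.3e-09). Of 16 universal fibroblast genes, 12 rose and 1 fell in immature mice (median 1.02) and 14 rose and 1 fell in mature mice (median 1.76). The largest changes among them were in Pdpn (2.93 ± 0.22, SE, adjusted p = 2.3e-12), the podoplanin gene, in immature mice and in Mfap4 (4.01 ± 0.26, SE, adjusted p = 1e-13), a protein of elastic fibres, in mature mice.

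Of the 16 skeletal stem and progenitor genes, 6 were higher and 0 lower at 14dpr than at baseline in immature mice (median 0.60), and 7 were higher and 2 lower in mature mice (median 0.30). Prrx2, the relative of Prrx1, was among the highest, at 1.71 ± 0.45 (SE, adjusted p = 0.0033) in immature and 2.65 ± 0.47 (SE, adjusted p = 3.2e-05) in mature mice, as was the cartilage factor Sox9 (1.5 ± 0.49, SE, adjusted p = 0.019, and 2.59 ± 0.50, SE, adjusted p = 8.9e-05). Among 9 genes of mural cells, which also express Pdgfrb, 2 were higher and 1 lower in immature mice (median 0.27) and 5 were higher and 1 lower in mature mice (median 1.07). The 3 of 9 called in immature mice lie near the share over all genes. So do the 6 of 16 called in the skeletal stem and progenitor list in immature mice. Of 13 ligands and relatives of the members, 7 rose and 1 fell in immature mice (median 0.54) and 9 rose and 1 fell in mature mice (median 1.01). The gene that fell was Lep, which encodes leptin, the fat cell hormone that binds the leptin receptor, at -1.98 ± 0.59 (SE, adjusted p = 0.0093) and -2.59 ± 0.58 (SE, adjusted p = 0.00061).

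From 0 to 2dpr, 44% of all genes were called in immature mice (21.8% higher, 22.2% lower) and 47.6% in mature mice (22.7% higher, 24.9% lower). In immature mice 9 activated fibroblast genes rose and 1 fell (median 0.82), and in mature mice 8 rose and 1 fell (median 1.20), led by Timp1, an inhibitor of matrix proteases (3.15 ± 0.30, SE, adjusted p = 1.2e-10, and 4.53 ± 0.32, SE, adjusted p = 1.1e-13). Universal fibroblast genes fell more often than they rose, with 5 higher and 10 lower in immature (median -0.65) and 4 higher and 7 lower in mature mice (median -0.33). Clec3b fell as Pi16 did, with log2 fold changes of -1.80 (adjusted p = 0.0012) in immature and -3.03 (adjusted p = 2.1e-06) in mature mice. Of the mural cell genes 0 rose and 5 fell in immature mice (median -1.35) and 1 rose and 6 fell in mature mice (median -1.67). Of the skeletal stem and progenitor genes 2 rose and 5 fell in immature mice (median -0.30), and 5 rose and 7 fell in mature mice (median -0.27), the former near the share over all genes. The ligands and relatives split evenly, with 5 higher and 5 lower in immature and 4 higher and 4 lower in mature mice, and Lep fell here too, at -2.42 (adjusted p = 0.00073) and -3.73 (adjusted p = 3.3e-06).

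**Figure D4:**
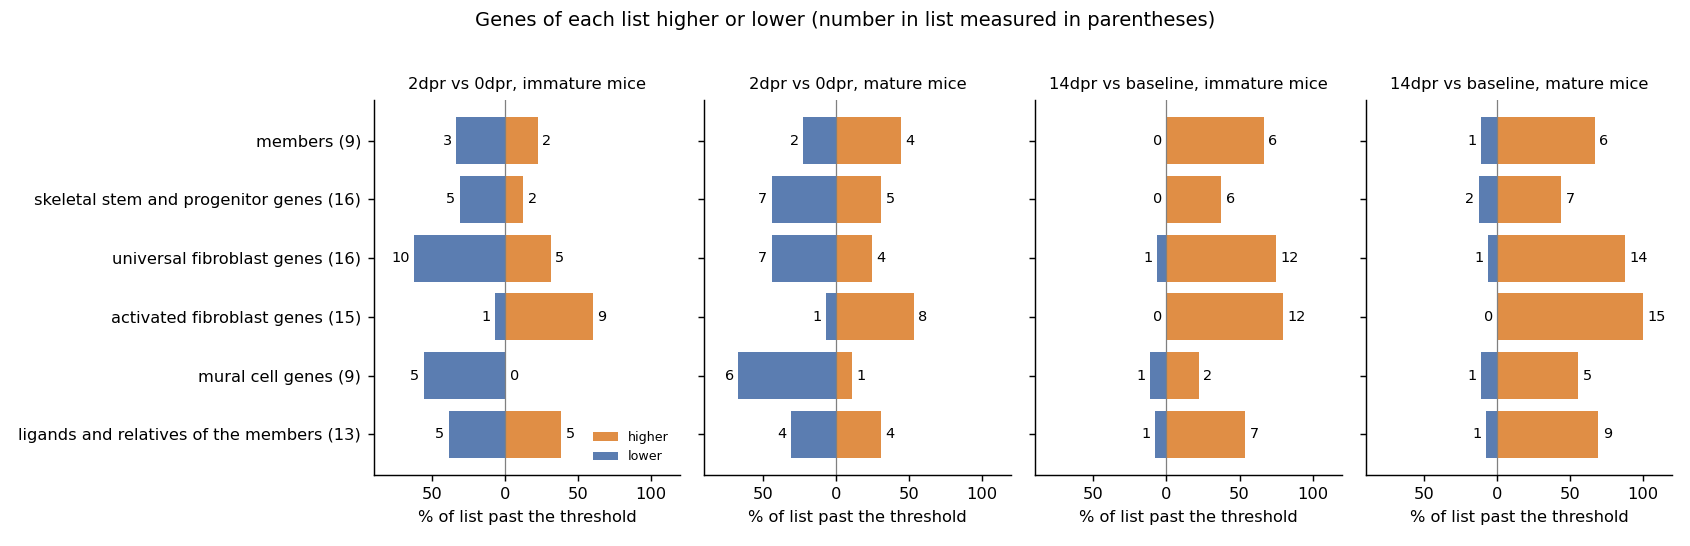
Share of each list, in percent, past the threshold in either direction, to the right for higher and to the left for lower, with the number of genes beside each bar. Activated fibroblast genes point right in all 4 panels, reaching 15 of 15 at 14dpr in mature mice, while universal fibroblast genes point mostly left at 2dpr and right at 14dpr.

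Other genes of these lists, which were chosen with earlier results of these data known, also differed between the ages. At baseline, 2 activated fibroblast genes were higher in immature mice, Col12a1 (1.52 ± 0.31, SE, adjusted p = 0.011), a collagen of dense connective tissue, and Timp1 (1.22 ± 0.28, SE, adjusted p = 0.031), and at 0dpr 6 of the 15 were higher and 0 lower. Cthrc1 led them at 0dpr (2.17 ± 0.35, SE, adjusted p = 0.00063). At 0dpr this list summed to 6952 CPM in immature replicate 1, and to 3547, 2653 and 3333 CPM in replicates 2 to 4. The mature libraries summed to 1987 to 2218 CPM. Of the universal fibroblast genes, 3 were higher in immature mice at baseline, 5 at 0dpr and 3 at 2dpr, and none was lower. Mfap4 was the largest of them each time, with 1.94 ± 0.25 (SE, adjusted p = 3.7e-05), 1.95 ± 0.25 (SE, adjusted p = 2.2e-05) and 1.53 ± 0.25 (SE, adjusted p = 0.0014). Over all genes 0.585%, 0.726% and 0.627% were called between the ages at these 3 stages.

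Members resembled each other to different degrees over the 10 group means of log2 CPM. Across these means, which share libraries and differ in tissue composition, Pearson's r was 0.915 between Prrx1 and Pdgfrb, 0.905 between Prrx1 and Thy1 and 0.902 between Ly6a and Thy1. Lepr ran opposite to Ly6a (r = -0.832) and with Dpp4 (r = 0.665), and Pi16 had an r of 0.608 with Dpp4. Among the 16147 genes with a mean of at least 1 CPM, those most like Postn were Col27a1 (r = 0.994), Col5a1 (0.988) and Col5a2 (0.983), all fibrillar collagen genes. Most like Pi16 were Igfbp6 (0.977), Tnxb (0.976) and Clec3b (0.975). Most like Lepr were Ly6d (0.986), Lifr (0.98) and Cd79b (0.976), of which Ly6d and Cd79b are genes of the B lineage. For the PDGF receptors these were Spsb1 (0.971), Lgi2 (0.97) and Calcrl (0.969) with Pdgfra, and Agtr2 (0.994), Nynrin (0.991) and Brinp3 (0.986) with Pdgfrb. Prrx1 was nearest to Asap3 (0.991), Mrgprf (0.988) and Tulp3 (0.984). Ly6a was nearest to Ctnna1 (0.99), Tmem43 (0.989) and Gnpnat1 (0.989), and Thy1 to Rab34 (0.996), Cyb5r3 (0.991) and Clca2 (0.991). Dpp4 had the weakest neighbours, Tmem42 (0.948), Fxyd3 (0.946) and Tgfa (0.939).

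**Figure D5:**
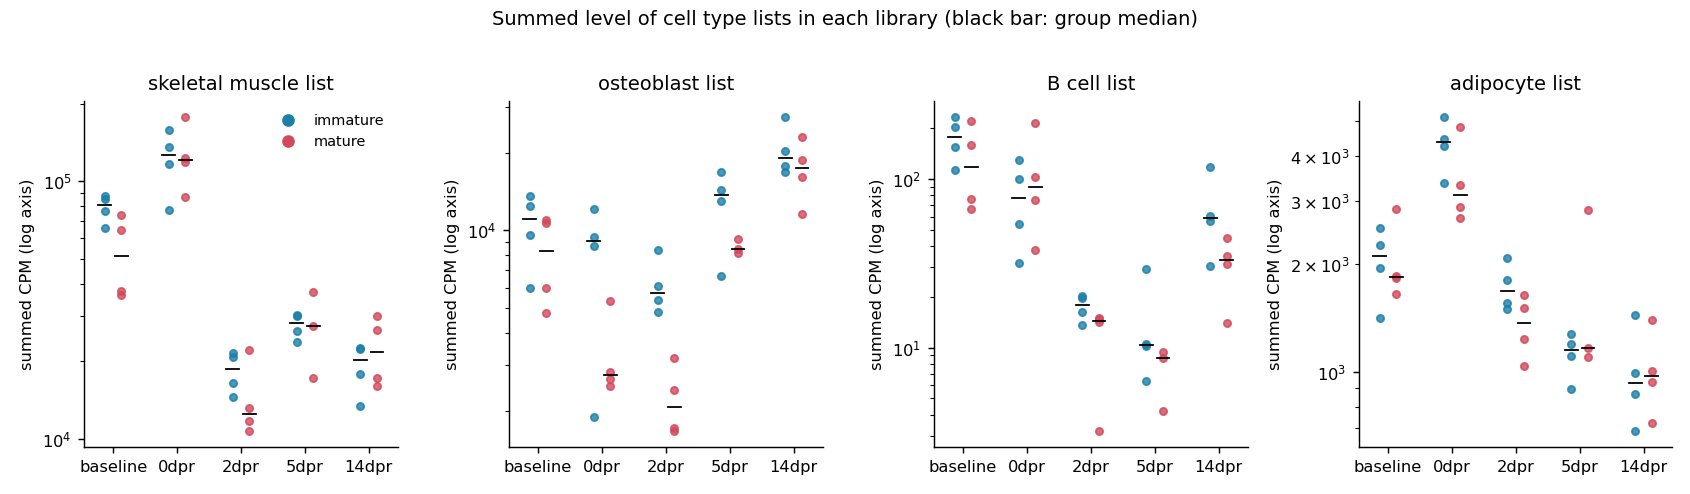
Summed CPM (log axis) of 4 cell type lists in each library against stage, immature mice in blue, mature mice in red, with a black bar at each group median. The muscle list is highest at 0dpr (medians 126543 and 121317 CPM), the B cell list is lowest at 2 and 5dpr, and the osteoblast list is highest at 14dpr (medians 19047 and 17447 CPM).

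Summed levels of other cell type lists differed between the stages in which the members changed. The adipocyte list (8 genes), which holds Lep, had medians of 4361 CPM at 0dpr and 1679 CPM at 2dpr in immature mice and of 3101 and 1372 CPM in mature mice. The chondrocyte list (8 of 9 genes in the table) rose to medians of 2207 and 1788 CPM at 14dpr from 429 and 276 CPM at baseline, in immature and mature mice. The myeloid list (8 genes) had medians of 1939 CPM at 0dpr and 7186 CPM at 2dpr in immature and of 2126 and 7491 CPM in mature mice. The members did not all change in the same direction as these lists, and the part of the lists in the members' levels was not tested.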

How the data were processed

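Bulk RNAseq of 39 libraries was analysed. The authors used STAR 2.5.2a and the GRCm38 genome (per the labels) to map reads and count them by gene, and deposited whole-number counts, unfiltered (48733 genes) and filtered (21204 genes). The filter's rule and the strand setting of the counting are not given in the sources used here. The authors' deposited normalized signal is CPM and equals edgeR's CPM with TMM factors (largest relative difference 4.99e-15).

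R 4.3.3, edgeR 4.0.16 and DESeq2 1.42.0 were used. EdgeR's quasi-likelihood test was run on the filtered counts with TMM factors and a term for each group (Benjamini-Hochberg over all genes, threshold 0.05). Each SE was derived from this test, as the absolute log2 fold change divided by the square root of its F statistic. The fit was tested on simulated counts. It compared the ages at each stage, the stages within each age, and the changes between stages across ages. Log2 CPM for likeness used a prior count of 2. Exonic lengths are from GENCODE vM21 (GRCm38), and promoters from RefSeq. On the opposite strand, annotated genes overlap exons of Dpp4 by 232 bases, of Pdgfra by 456 and 166 bases and of Pi16 by 222 bases.

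The members and gene lists were chosen with earlier results of these data known. All 9 members are named, with at most 3 genes per other list and comparison (the largest log2 fold changes among those past the threshold), and per member the 3 genes most like it.

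Whether replicate numbers pair libraries was checked from how far libraries with 1 number deviate together from their group means (correlation over genes). At 0dpr all 4 pairs of ages were above 0.1 (0.178 to 0.296), so that the numbers were taken as pairs there, in the fit with a replicate block. The test used throughout took no pairs. The other comparisons did not meet this. No library was a copy of another, since the squared differences within groups were 8.59 times the counting variance or more. Sequencing took several runs that the labels do not assign to libraries, and their effect was not tested.

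Alternatives were RLE factors, DESeq2's Wald test, edgeR's filter or none, only the libraries compared, a replicate block, a covariate for skeletal muscle (mean log2 CPM of 20 genes), an adjusted p under 0.01, and each library left out. A fit without mature 2dpr replicates 3 and 4 was added after the data were seen.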

Additional observations from a re-analysis of the deposited data

Results flagged for a closer look

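A library far from the others of its group, by Dixon's ratio on log2 CPM, was found in 5 of 81 sets of 4 libraries, where chance gives about 1 in 20. In mature mice at 2dpr, replicate 4 had 60.7 CPM of Pi16, beside 11.9 to 14.8 CPM in the other libraries (ratio 0.866). In mature mice at 0dpr, replicate 3 had 136 CPM of Ly6a, beside 111 to 112 CPM (0.956), and at 14dpr replicate 4 had 346 CPM of Pdgfra, beside 270 to 282 CPM (0.833). Replicate 4 of immature mice at 2dpr had 1778 CPM of Postn, beside 1245 to 1299 CPM (0.88), and 19.0 CPM of Dpp4, beside 24.7 to 25.7 CPM (0.872). No member changed in opposite directions in the immature and mature mice with libraries of both ages apart, and no interaction of age with a step passed the threshold.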

How the results depend on the processing

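RLE factors and no filter on low counts kept each of the 58 member changes with an unadjusted p under 0.05 on its side of the threshold, and no alternative reversed one. Numbers of members called changed as follows, with the number in the test used throughout in brackets. With the muscle score as a covariate, 1 member was called from 0 to 2dpr at each age (5 and 6 without it), 3 from baseline to 14dpr in immature mice (6), 3 from 2 to 5dpr in mature mice (4), 0 from baseline to 0dpr in immature mice (1) and 1 for the interaction of age with the change to 14dpr (0). With only the libraries compared, 0 were called between ages at 0dpr (1), 0 from baseline to 0dpr in immature (1) and 2 in mature mice (0), 3 from 2 to 5dpr in immature (2) and 3 in mature mice (4), 4 from 0 to 2dpr (6), 2 from 5 to 14dpr (1) and 8 from baseline to 14dpr (7) in mature mice and 1 for the interaction at 14dpr (0). DESeq2 called 2 from 5 to 14dpr in mature mice and 1 for that interaction, and edgeR's filter called 2 in the former. At an adjusted p under 0.01, 0 were called from baseline to 0dpr, 4 from 0 to 2dpr and 1 from 2 to 5dpr in immature mice, and 3 from 2 to 5dpr in mature mice. With the replicate number as a block, 0 were called from baseline to 0dpr and 1 from 2 to 5dpr in immature mice, and 5 from 2 to 5dpr in mature mice (4). At 0dpr, where the numbers were taken as pairs, the block kept the 1 call between ages. It changed no other number of calls. Without mature 2dpr replicates 3 and 4, 1 member (Pi16) differed between ages at 2dpr (0), and 7, with Dpp4 added, were called from 0 to 2dpr in mature mice (6). With single libraries left out, the number ranged from 0 to 1 between ages at baseline and from 0 to 2 at 2dpr. It ranged from 0 to 1 from baseline to 0dpr in immature mice, from 4 to 5 in immature and from 6 to 7 in mature mice from 0 to 2dpr, from 1 to 2 in immature and from 3 to 4 in mature mice from 2 to 5dpr, from 0 to 1 from 5 to 14dpr in mature mice and from 0 to 1 for the interaction with the step from 0 to 2dpr. The cause was not tested. Depth was at least 97 counts for a member in any library, and the spread between 3 or 4 libraries sets the precision of these values.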
